A study of Mus musculus with 8 samples.

Results

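The cholesterol genes described here are 34 mouse genes for making, sensing, moving and exporting cholesterol. They were chosen by gene symbol for their known roles, and all 34 were found among the 54532 genes of the deposited expression table and tested. They fall into 19 enzymes of synthesis, 5 genes of sterol sensing, 4 of uptake, transport and storage, and 6 of efflux and the liver X receptors (LXR). Messenger RNA was measured by RNA sequencing in 8 libraries of mouse cardiac fibroblasts, all collected at day 7. The 4 groups of 2 libraries were vector cells in complete medium, vector cells in osteogenic differentiation medium, EphrinB2-overexpressing cells in complete medium, and EphrinB2-overexpressing cells in osteogenic medium. EphrinB2, encoded by Efnb2, is a membrane-bound ligand of Eph receptors, and the vector cells were its controls. The labels give no strain, sex, age, promoter of the construct or composition of either medium. Whether partner libraries are separate cultures is not stated, so the p-values rest on a spread that may be purely technical.

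Cells make cholesterol from acetyl-CoA through mevalonate, isoprenoid diphosphates, squalene and lanosterol. The transcription factor SREBP2, encoded by Srebf2, turns on the genes of this route when the membranes of the endoplasmic reticulum are poor in sterol. SCAP escorts it to the Golgi for activation, and the INSIG proteins hold both back when sterol is plentiful. The receptors LXRalpha (Nr1h3) and LXRbeta (Nr1h2) answer to oxysterols and turn on exporters such as Abca1 and Abcg1, so both arms normally move in opposite directions with the sterol content of a cell. In the heart, fibroblasts make the matrix, while macrophages take up large amounts of lipid and rely on the efflux arm.

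Levels are given in FPKM, a count of sequenced fragments scaled to exon length and library depth, a unit that allows genes of different length to be compared. Fold changes are differences of log2(FPKM + 1), which understates the change of genes at low levels. They were tested with limma in 1 model over all 8 libraries, and a gene is said to rise or fall where its Benjamini-Hochberg adjusted p over all 12994 genes tested was under 0.05. Depth, estimated from the steps between low FPKM values, was 16493953 to 20550766 counted reads per library. FPKM summed over all genes was 360626 in EphrinB2 osteogenic replicate 1 and 253613 to 269809 in the other libraries. Levels and the main model were not rescaled for this. Vector libraries lay closer to their partners than EphrinB2 libraries did. The SD of the log2 difference between partners over all genes tested was 0.26 and 0.23 in vector cells, in complete and osteogenic medium, and 0.52 and 0.66 in EphrinB2 cells. EphrinB2 complete replicate 2 and EphrinB2 osteogenic replicate 1 lay far from their partners on the first principal component (-50.51 against -22.9, and 63.33 against 24.5). They also lay farther than their partners from the vector libraries of the same medium (-29.55 and -29.59, and 21.68 and 23.05). They are called the libraries that stood apart. Fits without them keep the EphrinB2 libraries that lay nearer the vector libraries. They leave 1 library in each EphrinB2 group, assumed to vary like the vector groups, and 29.7% of all genes passed between media in EphrinB2 cells. In complete medium the Efnb2 level was 5.93 ± 0.521 FPKM with the vector and 32.1 ± 1.12 with EphrinB2 (SD, n = 2), and in osteogenic medium it was 1.33 ± 0.0908 against 5.02 and 18.3. All 10 fibroblast markers examined were measured above 1 FPKM in at least 2 libraries, and so were all 21 macrophage markers.

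The synthesis enzymes fell together in osteogenic medium. In vector cells 14 of the 19 fell and 0 rose, with a median log2 change of -1.21, against -0.02 over all genes tested. In EphrinB2 cells 14 of the 19 fell and 0 rose, with a median of -1.01 against 0.03. Over the table as a whole, 3.11% of genes tested fell and 4.41% rose in vector cells (7.52% in either direction), and 5.44% fell and 6.36% rose in EphrinB2 cells (11.8% in either direction). The same 14 enzymes fell in both kinds of cell. Summed over the 19 enzymes, the level of both vector libraries was 333 and 322 FPKM in complete medium against 138 and 134 in osteogenic medium. The EphrinB2 libraries summed to 317 and 297 against 171 and 130, so that the groups did not overlap in either kind of cell. The 171 is from the library with the highest FPKM total over all genes. With 2 libraries per group, groups can fail to overlap by chance, and the share of all genes that did so was not counted. Between EphrinB2 and vector cells in complete medium, 2 enzymes lay wholly above and 5 wholly below, although 0 passed the threshold with limma. Groups said not to overlap describe the libraries and are not a test.

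**Figure D1:**
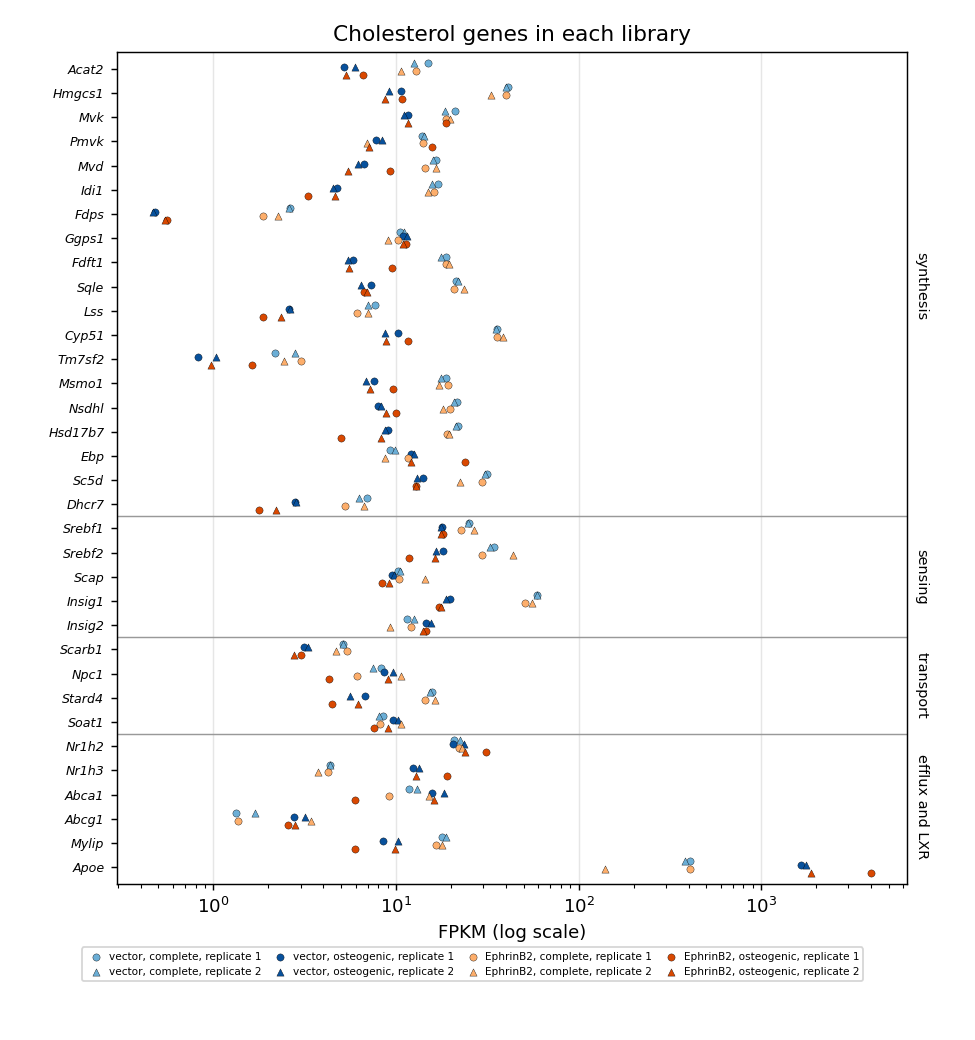
Level of each of the 34 cholesterol genes in each library, in FPKM on a log scale, with 1 point per library (circles replicate 1, triangles replicate 2) and colours for the 4 groups. For Hmgcs1 the 4 libraries in osteogenic medium lie between 8.73 and 10.8 FPKM and the 4 in complete medium between 33.2 and 41, while Apoe spans 140 to 3989.

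Hmgcs1, which makes HMG-CoA at the entry to the mevalonate route, had the largest log2 change among the enzymes on the scale of FPKM + 1. As a plain ratio of mean FPKM, the low gene Fdps fell further in vector cells (0.181 against 0.244 for Hmgcs1), and in EphrinB2 cells the ratios of Idi1, Fdps and Hmgcs1 were 0.254, 0.266 and 0.267. Vector cells held 41 and 39.8 FPKM in complete medium against 10.6 and 9.12 in osteogenic medium. EphrinB2 cells held 40 and 33.2 against 10.8 and 8.73, and the media are given in this order throughout. Every library in osteogenic medium was below every library in complete medium, whichever construct the cells carried. The log2 change was -1.93 in vector cells (SE 0.18, adjusted p = 0.00194 with limma) and -1.80 in EphrinB2 cells (adjusted p = 0.00199). Cyp51, the cytochrome P450 that demethylates lanosterol, was at 35.6 and 35.2 FPKM against 10.2 and 8.68 in vector cells. The EphrinB2 libraries had 35.9 and 38.5 against 11.6 and 8.86. These groups did not overlap either, and the log2 change of Cyp51 was -1.80 and -1.78 (SE 0.18, adjusted p = 0.00234 and 0.002 with limma).

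Along the route, the falls were not limited to one stage. At its start, Acat2, which joins acetyl-CoA units, fell to 0.407 of its mean FPKM in complete medium in vector cells and to 0.505 in EphrinB2 cells. Of the 3 enzymes that turn mevalonate into isopentenyl diphosphate, only Mvd, the last of them, passed the threshold (-1.22 and -1.01). The mean level of the first, Mvk, went from 19.7 ± 1.81 to 11.3 ± 0.384 FPKM in vector cells (SD, n = 2 per group; adjusted p = 0.118 with limma). That of the second, Pmvk, went from 14.1 ± 0.295 to 8.07 ± 0.447 (adjusted p = 0.403 with limma). In EphrinB2 cells the Pmvk libraries spread from 6.9 to 15.7 FPKM, and the groups overlapped (log2 change 0.10). Idi1, the isopentenyl diphosphate isomerase, fell to 0.284 of its mean in complete medium in vector cells and to 0.254 in EphrinB2 cells.

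The prenyl branch point split. Fdps, which makes farnesyl diphosphate, fell (log2 change -1.29 and -0.98), and so did Fdft1, the squalene synthase that commits it to sterols (-1.53 and -1.28). Ggps1, which instead makes geranylgeranyl diphosphate for protein prenylation, stood at 10.8 ± 0.441 against 11.2 ± 0.463 FPKM with the vector (SD, n = 2). Its log2 change was 0.04 with a 95% interval of -0.29 to 0.37 in vector cells and 0.19 (-0.14 to 0.52) in EphrinB2 cells. Of 10 enzymes tested that use isoprenoids outside sterol synthesis, 0 passed the threshold in either kind of cell with limma, and 0 and 3 had an unadjusted p under 0.05. As 7.52% and 11.8% of all genes passed, 0 of 10 says little. With the 4 vector libraries alone 3 of them fell and 1 rose, where 22.1% of all genes fell and 18.5% rose. Fdps was low, at 38 to 208 estimated reads per library. Of its exon bases 26.7% lie in Gm43738, a gene on the same strand listed at 0 FPKM in 7 libraries, so reads that could not be assigned may have lowered its level. Fdft1 shares 18.3% of its exon bases with Ctsb on the opposite strand, and no source used here gives the strand setting. Noncoding or unclassified genes on the opposite strand also cover 13.2% of the exon bases of Scap, 12.1% of Hmgcs1 and 9.2% of Idi1. Ctsb, a lysosomal protease, stood higher in osteogenic medium (vector cells 207 ± 10.3 against 295 ± 12.2 FPKM, SD, n = 2), the opposite of Fdft1.

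From squalene onward, Sqle, the squalene epoxidase, changed by -1.52 and -1.58 on the log2 scale, and Lss, which closes the ring to lanosterol, by -1.21 and -1.29. Msmo1, Nsdhl and Hsd17b7, which strip methyl groups from the sterol ring, all fell, by 1.03 to 1.22, 0.93 to 1.28 and 1.19 to 1.45. Tm7sf2, a sterol reductase, lay just above the threshold (-0.85 and -0.71, adjusted p = 0.0503 and 0.0649 with limma). It was low, at 70 to 255 estimated reads per library, and shares 12.1% of its exon bases with Vps51 on the same strand. Among the last steps, Sc5d fell by 1.15 and 0.95 and Dhcr7, the 7-dehydrocholesterol reductase, by 0.99 and 1.21. Ebp, the isomerase that shifts a ring double bond before them, was an exception. Vector libraries had 9.28 and 9.93 FPKM against 12.1 and 12.6. EphrinB2 libraries had 11.6 and 8.74 against 24 and 12.1. All 4 libraries in osteogenic medium were above all 4 in complete medium, though neither change passed (0.33 and 0.71, adjusted p = 0.679 and 0.171 with limma). Without the libraries that stood apart the value in EphrinB2 cells was 0.05.

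**Figure D2:**
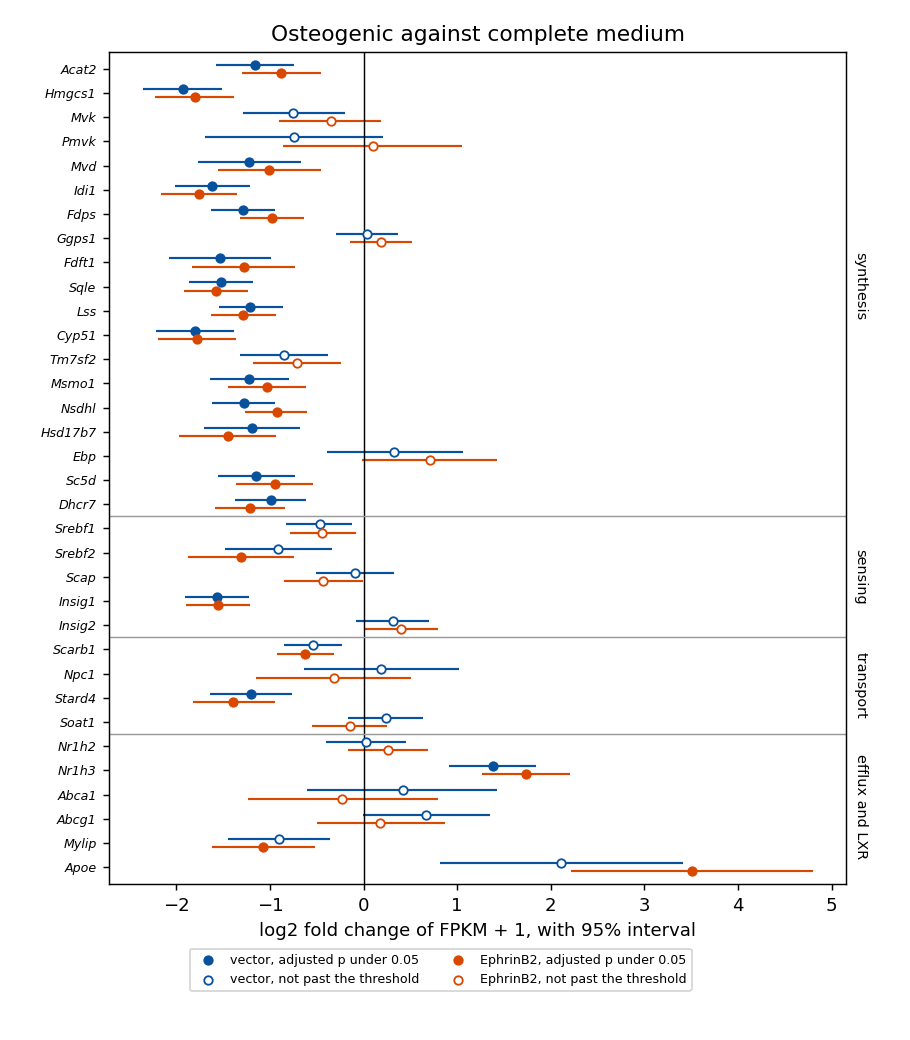
Log2 fold change of FPKM + 1 in osteogenic against complete medium for each of the 34 genes, with 95% intervals, in vector cells (blue) and EphrinB2 cells (orange); filled points passed an adjusted p of 0.05. Of the 19 synthesis enzymes, 14 are filled to the left of 0 in both colours, while Ggps1 and Ebp lie to the right of 0 in both and Pmvk in EphrinB2 cells.

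The model takes 1 spread for all groups, although EphrinB2 partners differed more. Fitted on the 4 vector libraries alone, 17 synthesis enzymes fell and 1 rose (Ebp, adjusted p = 0.0119 with limma), where 22.1% of all genes fell and 18.5% rose. Fitted on the 4 EphrinB2 libraries alone, 0 of the 34 members passed with limma (22 had an unadjusted p under 0.05, and the lowest adjusted p was 0.0594, for Idi1), where 0.323% of all genes fell and 0.854% rose. Leaving out 1 vector library lowered the enzymes fallen in vector cells from 14 to 4 without complete replicate 1, 4 without complete replicate 2, 4 without osteogenic replicate 1 and 3 without osteogenic replicate 2. Of all genes tested, 0.454%, 0.462%, 0.523% and 0.408% fell in the same 4 fits. Leaving out EphrinB2 complete replicate 2 lowered those fallen in EphrinB2 cells to 9, where 2.09% of all genes fell. With both libraries that stood apart left out, each EphrinB2 group was 1 library, assumed to vary like the vector groups, and 17 enzymes fell in EphrinB2 cells, where 15.7% of all genes fell. In that fit Mvk and Tm7sf2 also fell (-0.64 and -1.03, adjusted p = 0.0168 and 0.0184 with limma), and the change of Pmvk turned to -0.88 (adjusted p = 0.00381).

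SREBP2 binds sterol response elements together with NF-Y, which recognises the CCAAT box, so the start sites of the members were searched for both. The RefSeq promoter table (GRCm38.p6) holds 27 of the 34 members and 27025 genes in all, each as 250 bases before to 50 after a start site. The letters CCAAT, on either strand, were found at 15 of the 16 synthesis enzymes in the table and at 41.1% of all its genes. Within the last 100 bases before the start they were found at 14 of the 16, and at 5953 of the 27025 genes. Among the other members, CCAAT was found at 4 of 5 sensing genes, at Soat1, and at 1 of 5 efflux and LXR genes, Mylip. The response element searched, TCACNCCAC on either strand, does not overlap CCAAT and was found at Hmgcs1 alone among the members, and at 1.4% of all genes. Ebp and Ggps1, which did not fall, hold CCAAT as the fallen enzymes do, and Acat2, which fell, does not. A match describes the letters of the window and is not a binding site.

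Below are the 250 bases before the start of 3 enzymes that fell at the start, middle and end of the route, of Ebp, which did not, and of Mylip and Abca1, which stand for the LXR targets with and without CCAAT. No base of these windows lies in an annotated exon. Of the 6 start sites, 4 matched a transcript start in the gene annotation used. There Hmgcs1 begins at 119690379 and Sc5d at 42264256, which is not directly after their windows. Each is written 5′ to 3′ on the strand of its gene, with CCAAT, its reverse complement ATTGG and the response element in capitals. Hmgcs1 lies at chr13:119690101-119690350 (plus strand), with 3 CCAAT boxes and 1 response element. Mvd lies at chr8:122443423-122443672 (minus strand), with 2 CCAAT boxes, and Sc5d at chr9:42264301-42264550 (minus strand), with 1. Ebp lies at chrX:8193513-8193762 (minus strand), with 2, Mylip at chr13:45389492-45389741 (plus strand), with 3, and Abca1 at chr4:53159896-53160145 (minus strand), with 0.
Hmgcs1: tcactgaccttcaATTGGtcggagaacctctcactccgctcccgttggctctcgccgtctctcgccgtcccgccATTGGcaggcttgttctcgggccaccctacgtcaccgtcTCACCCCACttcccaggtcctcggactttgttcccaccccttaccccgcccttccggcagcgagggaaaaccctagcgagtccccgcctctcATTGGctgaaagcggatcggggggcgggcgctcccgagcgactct
Mvd: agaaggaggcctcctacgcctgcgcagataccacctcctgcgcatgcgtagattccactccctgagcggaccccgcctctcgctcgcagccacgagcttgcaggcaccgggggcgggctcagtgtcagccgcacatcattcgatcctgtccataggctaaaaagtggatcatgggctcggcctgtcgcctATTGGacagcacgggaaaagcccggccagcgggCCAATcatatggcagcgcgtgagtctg
Sc5d: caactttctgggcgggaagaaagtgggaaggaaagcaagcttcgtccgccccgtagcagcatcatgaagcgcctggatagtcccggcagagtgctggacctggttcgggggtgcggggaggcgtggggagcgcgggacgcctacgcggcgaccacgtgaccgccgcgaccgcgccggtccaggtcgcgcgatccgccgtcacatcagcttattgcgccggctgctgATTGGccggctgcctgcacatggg
Ebp: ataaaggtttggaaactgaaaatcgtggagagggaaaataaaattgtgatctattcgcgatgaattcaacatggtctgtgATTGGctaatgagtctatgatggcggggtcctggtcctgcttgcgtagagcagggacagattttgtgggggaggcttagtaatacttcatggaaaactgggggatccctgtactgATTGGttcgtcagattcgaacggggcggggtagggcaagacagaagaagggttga
Mylip: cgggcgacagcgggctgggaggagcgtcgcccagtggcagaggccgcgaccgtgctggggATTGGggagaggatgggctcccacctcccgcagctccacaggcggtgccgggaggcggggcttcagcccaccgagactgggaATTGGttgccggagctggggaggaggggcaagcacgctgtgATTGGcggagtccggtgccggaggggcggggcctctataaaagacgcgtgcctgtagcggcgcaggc
Abca1: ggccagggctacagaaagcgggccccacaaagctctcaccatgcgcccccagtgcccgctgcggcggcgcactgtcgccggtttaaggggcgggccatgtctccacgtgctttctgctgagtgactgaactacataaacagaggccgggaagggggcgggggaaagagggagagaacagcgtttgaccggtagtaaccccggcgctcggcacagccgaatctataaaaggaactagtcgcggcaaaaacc

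**Figure D3:**
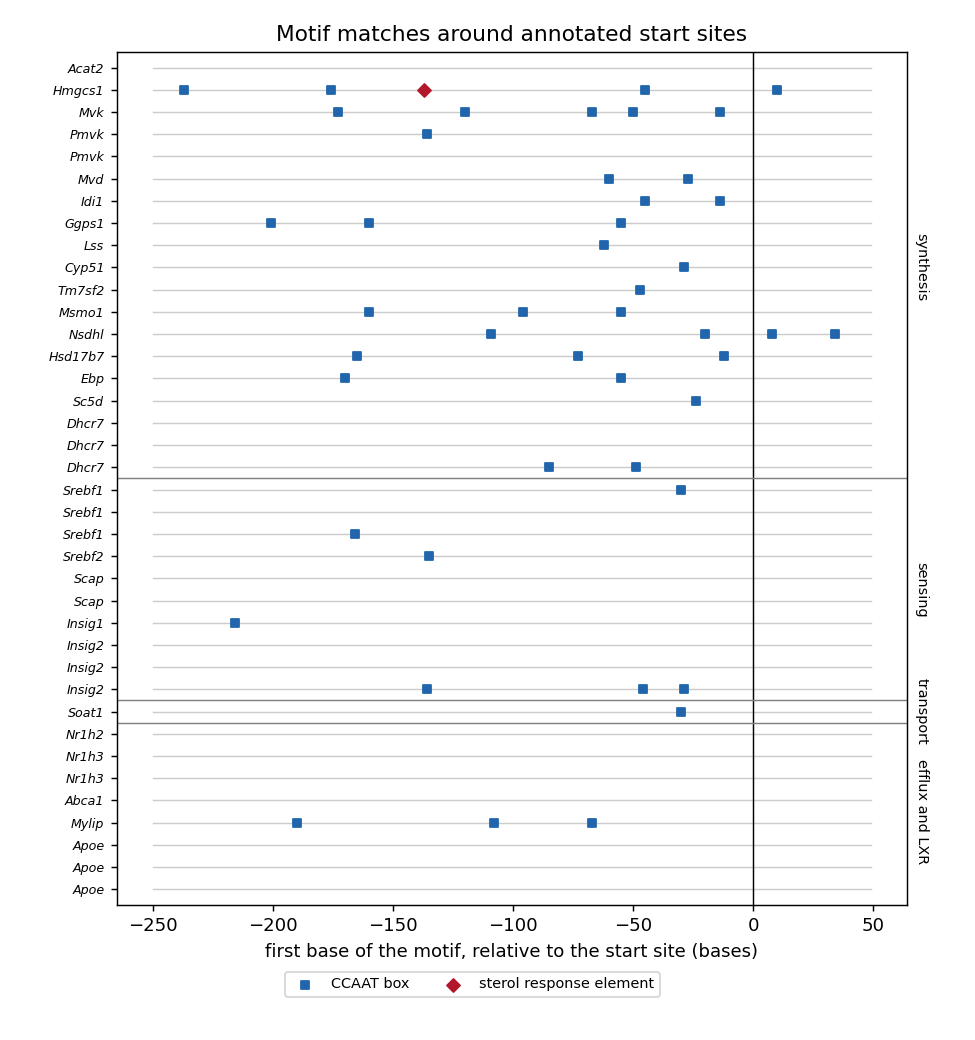
Position of CCAAT boxes (squares) and of the sterol response element (diamond) around each RefSeq start site of the 27 members in the table, in bases from the start, with 1 line per start site. Boxes lie close before the start in the synthesis enzymes, 14 of 16 with one in the last 100 bases, and the efflux and LXR lines are empty except Mylip.

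Among the sensing genes, both INSIG genes went different ways. Insig1, itself an SREBP2 target, was the most abundant synthesis or sensing gene in vector cells in complete medium, at 59.1 and 59.2 FPKM against 19.7 and 18.9. With EphrinB2 the levels were 50.7 and 55.4 against 17.1 and 17.7. Partner libraries were close and the media did not overlap, with a log2 change of -1.57 and -1.56 (SE 0.15, adjusted p = 0.00197 and 0.00163 with limma). Insig2, which is not under the same sterol feedback, stood at 11.5 and 12.5 FPKM against 14.6 and 15.6 in vector cells. The EphrinB2 pairs were 12.1 and 9.32 against 14.6 and 14.1. All 4 libraries in osteogenic medium were higher, but neither change passed (0.31 and 0.40, adjusted p = 0.395 and 0.16 with limma). With the 4 vector libraries alone it rose (adjusted p = 0.0213 with limma), where 18.5% of all genes rose. Insig1 stood well above Insig2 in complete medium in both kinds of cell, and near it in osteogenic medium.

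Srebf2, the factor itself, was at 34.4 and 32.8 FPKM against 18.2 and 16.6 in vector cells. EphrinB2 cells had 29.5 and 43.9 against 11.8 and 16.4. The media did not overlap in either kind of cell. The log2 change was -0.91 in vector cells, short of the threshold (SE 0.24, adjusted p = 0.0754 with limma), and -1.31 in EphrinB2 cells (adjusted p = 0.0179). Without the libraries that stood apart, with 1 library left per EphrinB2 group, the latter was -0.81. Srebf1, which encodes the SREBP1 forms that favour fatty acid genes, was at 25.1 and 24.9 FPKM against 17.9 and 17.6 in vector cells. In cells with EphrinB2 the values were 22.6 and 26.6 against 18 and 17.7. These groups did not overlap, and the smaller changes did not pass (-0.47 and -0.44, adjusted p = 0.127 and 0.107 with limma). Without the libraries that stood apart the log2 change of Srebf1 in EphrinB2 cells was -0.34. Scap differed least in vector cells, with a mean of 10.3 ± 0.161 against 9.63 ± 0.175 FPKM (SD, n = 2). Over the 5 sensing genes, 1 fell in vector cells and 2 in EphrinB2 cells, where 3.11% and 5.44% of all genes fell. In either kind of cell 0 rose. With the 4 vector libraries alone 3 fell (Insig1, Srebf2 and Srebf1), where 22.1% of all genes fell.

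Of the 4 transport genes, Stard4, which carries cholesterol between membranes and is a known sterol-regulated gene, fell in both kinds of cell. Vector cells gave 15.7 and 15.3 FPKM against 6.74 and 5.63. EphrinB2 cells gave 14.5 and 16.3 against 4.44 and 6.2, and the log2 change was -1.20 and -1.39 (SE 0.18, adjusted p = 0.0112 and 0.00561 with limma). Neither pair of groups overlapped. Scarb1, the high density lipoprotein receptor, stood at 5.11 and 5.14 FPKM against 3.12 and 3.3 in vector cells. Its EphrinB2 libraries had 5.36 and 4.68 against 3.02 and 2.77, and no groups overlapped. Its change passed in EphrinB2 cells (-0.63, adjusted p = 0.0268 with limma) and missed in vector cells (-0.54, adjusted p = 0.0558). Npc1, which exports cholesterol from lysosomes, had a log2 change of 0.19 and -0.32, and Soat1, which esterifies it for storage, of 0.24 and -0.15. Neither passed in either kind of cell. Without the libraries that stood apart, with 1 library left per EphrinB2 group, Npc1 turned to 0.50 in EphrinB2 cells.

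The 6 efflux and LXR genes did not move as 1 group. In vector cells 1 rose (Nr1h3) and 0 fell, with a median log2 change of 0.54. In EphrinB2 cells 2 rose (Nr1h3 and Apoe) and 1 fell (Mylip), with a median of 0.22. The shares over all genes were 4.41% risen and 3.11% fallen in vector cells, and 6.36% and 5.44% in EphrinB2 cells. Nr1h3, which encodes LXRalpha, was at 4.35 and 4.34 FPKM against 12.4 and 13.3 in vector cells. The EphrinB2 libraries lay at 4.22 and 3.76 against 19.1 and 12.8. The groups lay far apart, and the log2 change was 1.38 and 1.74 (SE 0.20, adjusted p = 0.00918 and 0.00313 with limma). Nr1h2, which encodes LXRbeta, was at 20.9 and 22.3 FPKM against 20.4 and 23.5 in vector cells, where the groups overlapped. With EphrinB2 it was at 22.2 and 23 against 31.1 and 23.9. Its log2 change was 0.03 (95% interval -0.40 to 0.45) and 0.26 (-0.17 to 0.69). LXRalpha messenger was thus below LXRbeta messenger in every library, and the gap was smaller in osteogenic medium.

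Apoe, the lipoprotein component that carries effluxed cholesterol, was the most abundant of the 34 genes. Vector libraries held 409 and 382 FPKM against 1659 and 1768. EphrinB2 libraries held 408 and 140 against 3989 and 1875. All 4 libraries in osteogenic medium were above all 4 in complete medium. The log2 change was 3.51 in EphrinB2 cells (SE 0.54, adjusted p = 0.01 with limma) and 2.11 in vector cells, where it missed the threshold (adjusted p = 0.0698). With the 4 vector libraries alone it rose (SE 0.06, adjusted p = 0.000193 with limma), where 18.5% of all genes rose. The lowest and the highest Apoe level were those of the libraries that stood apart, and without them the log2 change in EphrinB2 cells was 2.20. The EphrinB2 libraries kept were those nearer the vector libraries, so its closeness to the value in vector cells follows in part from that choice.

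Abca1, the exporter that loads cholesterol on apolipoproteins, was at 11.8 and 13.1 FPKM against 15.7 and 18.3 in vector cells. The EphrinB2 values were 9.13 and 15.1 against 5.94 and 16.1, so that the groups overlapped. The log2 change was 0.42 and -0.23 (adjusted p = 0.731 and 0.722 with limma). Without the libraries that stood apart, with 1 library left per EphrinB2 group, it turned to 0.76 in EphrinB2 cells. Abcg1, which exports cholesterol to high density lipoprotein, was at 1.33 and 1.68 FPKM against 2.76 and 3.19 in vector cells. Its EphrinB2 groups, at 1.36 and 3.43 against 2.56 and 2.79, overlapped. The log2 change was 0.67 and 0.18 (adjusted p = 0.266 and 0.667 with limma). Without the libraries that stood apart the log2 change of Abcg1 in EphrinB2 cells was 0.68. Fitted on the 4 vector libraries only, 4 of the 6 genes rose (Apoe, Nr1h3, Abcg1 and Abca1) and Mylip fell. Of all genes tested, 18.5% rose and 22.1% fell in that fit.

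Mylip, an LXR target in many cells, encodes a ubiquitin ligase that removes lipoprotein receptors from the cell surface. It stood at 17.9 and 18.8 FPKM against 8.45 and 10.3 in vector cells. Cells with EphrinB2 had 16.6 and 17.9 against 5.95 and 9.83. The media did not overlap, in the direction opposite to Nr1h3 and Apoe. The log2 change was -0.90 in vector cells (SE 0.23, adjusted p = 0.0674 with limma) and -1.07 in EphrinB2 cells (adjusted p = 0.0303). Without the libraries that stood apart the latter was -0.70. Of 7 other LXR targets tested, 1 rose in vector cells (Mertk, a receptor for engulfing dead cells, 1.39, adjusted p = 0.0452 with limma). In EphrinB2 cells 1 rose (Smpdl3a, a phosphodiesterase, 1.45, adjusted p = 0.0156), and 0 fell in either. The shares of all genes that rose were 4.41% in vector cells and 6.36% in EphrinB2 cells.

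Macrophage markers and part of the fibroblast markers moved with these changes. The summed level of the 21 macrophage markers was 2284 and 2017 FPKM against 5144 and 5408 in vector cells. In the EphrinB2 libraries it was 1925 and 987 against 8961 and 4561, so that its lowest and highest libraries were also those of Apoe. Lyz2 alone gave 551 of the 987 and 6061 of the 8961. Short markers such as Lyz2 and C1qa (142 and 82.8 FPKM against 830 and 363) followed this order, but not every marker did. The longer Csf1r was at 18.9 and 26.2 against 51 and 51.4, and Mrc1 at 11 and 15.3 against 36 and 55. Of the 21, 10 rose and 0 fell in vector cells, 18 rose and 1 fell in EphrinB2 cells, and 0 were at 0 in all libraries. Among all genes tested, 4.41% rose and 3.11% fell in vector cells, and 6.36% and 5.44% did in EphrinB2 cells. The summed level of the 10 fibroblast markers ranged from 6329 to 8096 FPKM in complete and from 2507 to 2907 in osteogenic medium. Only 4 of the 10 fell in each kind of cell, the matrix genes Col1a1, Col1a2, Col3a1 and Fn1. Dcn, which encodes the proteoglycan decorin, rose (1.46 and 2.16), and the median log2 change of the 10 was -0.26 and -0.43. In these bulk libraries fewer cells of a type and less RNA per cell cannot be told apart. The part of either marker list in the fall of synthesis genes or the rise of Nr1h3 and Apoe was not tested. Of 6 adipocyte markers, 5 were under 1 FPKM in all libraries. The sixth, the lipid carrier Fabp4, rose from 1.15 ± 0.272 to 24.3 ± 0.418 FPKM in vector cells (SD, n = 2; log2 change 3.56, adjusted p = 0.0023 with limma), and by 4.36 in EphrinB2 cells. The cardiomyocyte list likewise had 5 of 6 under 1 FPKM in all libraries, and its sixth gene, Tnnt2, rose (2.12 and 2.80). Among 3 endothelial markers tested Cdh5 fell (-1.13 and -1.21) and 0 rose.

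Of 22 other sterol trafficking and oxysterol genes tested, 1 rose and 2 fell in vector cells, and 2 rose and 2 fell in EphrinB2 cells. Of all genes tested, 4.41% rose and 3.11% fell in vector cells, and 6.36% and 5.44% did in EphrinB2 cells. Counts this small do not set the 22 genes apart from those shares. Cyp27a1, the mitochondrial sterol hydroxylase whose oxysterol product can activate LXR, was at 7.07 and 7.22 FPKM against 54.2 and 64.9 in vector cells. The EphrinB2 cells had 9.89 and 5.97 against 74.3 and 64.7, and the log2 change was 2.89 and 3.01 (SE 0.24, adjusted p = 0.00119 and 0.000977 with limma). Cyp7b1, which hydroxylates oxysterols on the way to their removal, rose in EphrinB2 cells (1.39, adjusted p = 0.0219) and missed in vector cells (1.14, adjusted p = 0.0545). Vldlr, a lipoprotein receptor, fell in both (-1.37 and -1.61), and so did Erlin2, a component of the sterol-dependent degradation machinery (-0.88 and -0.95). Of 14 fatty acid synthesis genes under SREBP1, 3 fell in vector cells and 4 in EphrinB2 cells, and 0 rose. The desaturase Scd2 had the largest fall in vector cells, from 147 ± 4.21 to 44.4 ± 1.17 FPKM (SD, n = 2; log2 change -1.70, adjusted p = 0.00464 with limma). Fads2 and Elovl6 also fell in both kinds of cell.

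None of the 34 genes passed the threshold between EphrinB2 and vector cells. Efnb2, the overexpressed gene, did not pass in either medium. Its mean level in complete medium was 5.93 FPKM with the vector and 32.1 with EphrinB2, and the only gene that passed there fell. These tests could thus miss even a large change. In complete medium the member log2 changes against vector cells ranged from -0.72 to 0.37, with a median of -0.07, and 0 passed with limma (0 with an unadjusted p under 0.05), where 0.00770% of all genes, 1 gene, did. In osteogenic medium they ranged from -0.72 to 0.68, with a median of -0.01, and again 0 members passed (0 with an unadjusted p under 0.05), where 0% of all genes did and 441 had an unadjusted p under 0.05. The interaction, which asks whether the effect of the medium differed between EphrinB2 and vector cells, gave 0 members and 0% of all genes with limma (0 members and 214 genes with an unadjusted p under 0.05). Its member values ranged from -0.64 for Abca1 to 1.40 for Apoe. Without the libraries that stood apart they were 0.34 and 0.08, and the range was -0.28 for Ebp to 0.40 for Fdps. That fit keeps the EphrinB2 libraries nearer the vector libraries, so its smaller values follow in part from that choice. These comparisons share control groups with those of the media. Intervals differed in width. For Hmgcs1 the EphrinB2 effect was -0.14 (95% interval -0.57 to 0.28) in complete and -0.02 (-0.44 to 0.41) in osteogenic medium, which is narrow beside its change with the medium. For Apoe it was -0.72 (-2.02 to 0.57) and 0.68 (-0.62 to 1.97), which leaves room for changes in either direction.

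**Figure D4:**
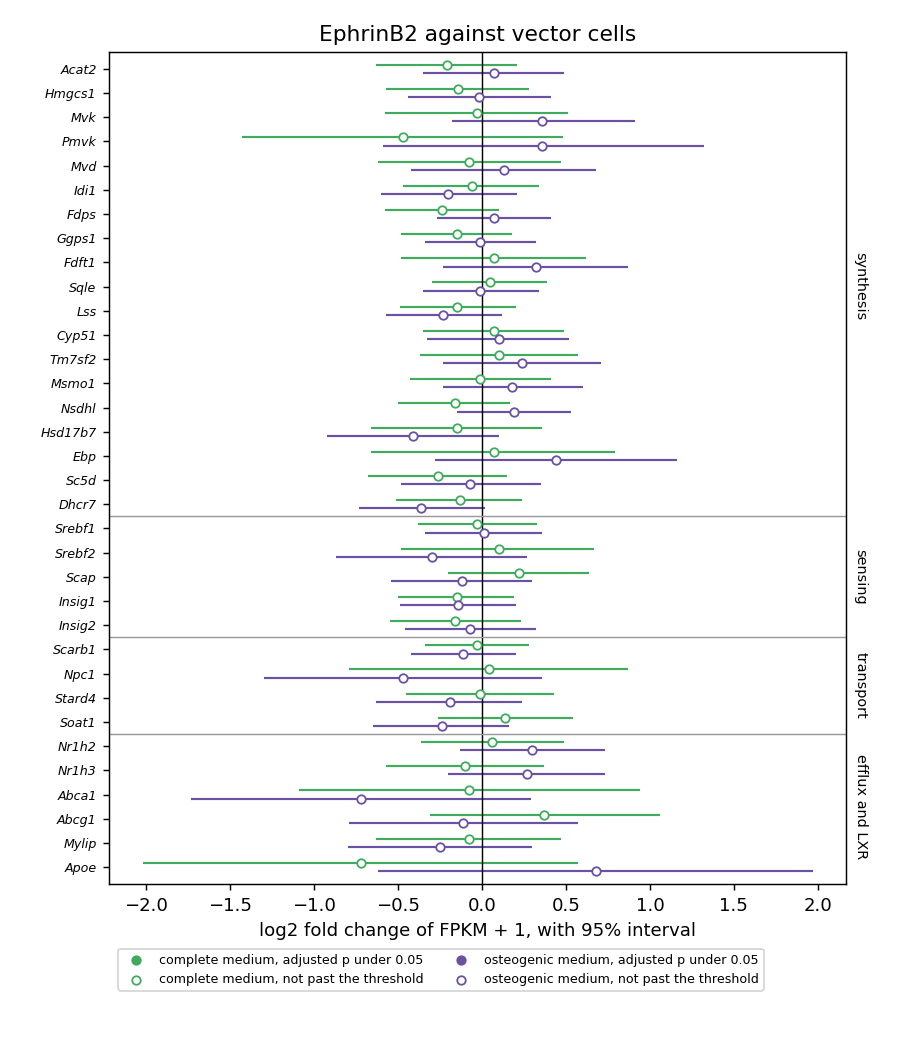
Log2 fold change of FPKM + 1 in EphrinB2 against vector cells for each of the 34 genes, with 95% intervals, in complete (green) and osteogenic (purple) medium; open points did not pass an adjusted p of 0.05. All 68 points are open, and the widest intervals are those of Apoe, reaching from -2.02 to 0.57 and from -0.62 to 1.97.

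Leaving out EphrinB2 osteogenic replicate 2, so that replicate 1 alone stood for its group and was assumed to vary like the others, gave 6 members past the threshold in osteogenic medium with limma. Ebp, Mvk, Fdft1 and Nr1h3 were higher (0.90, 0.69, 0.67 and 0.54) and Abca1 and Hsd17b7 lower (-1.37 and -0.72), where 21.1% of all genes passed. The members shared a trend that ran through the EphrinB2 libraries. Across the 34 members, the log2 difference between EphrinB2 osteogenic replicates 1 and 2 fell with exon length, with Spearman's rho of -0.68, from 1.09 for Apoe to -1.30 for Abca1. In EphrinB2 complete medium rho was -0.60, from 1.54 for Apoe to -0.91 for Abcg1. In vector cells it was 0.04 and 0.07. Over all genes tested it was -0.51, -0.44, -0.04 and 0.02 in the same order of EphrinB2 osteogenic, EphrinB2 complete, vector complete and vector osteogenic. Genes are not independent replicates, and both values of a point come from the same pair of libraries. Apoe and Pmvk are short and Abca1 and Npc1 long, and these members had wide intervals or overlapping media in EphrinB2 cells. The part of gene length in their values was not tested.

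**Figure D5:**
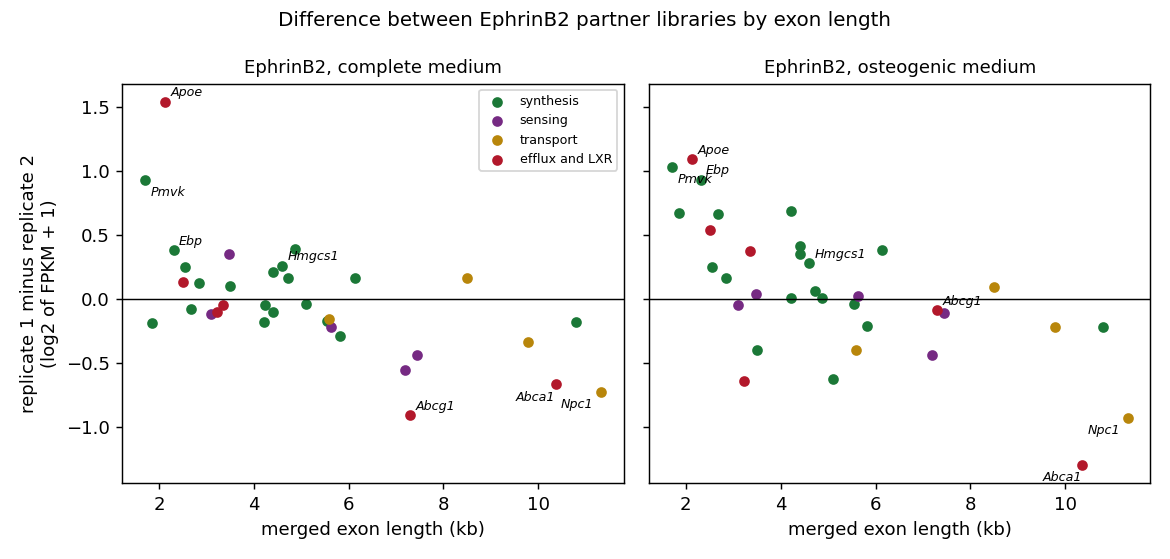
Log2 difference between replicates 1 and 2 of the EphrinB2 groups against merged exon length in kb, with 1 point per member, coloured by role, in complete (left) and osteogenic medium (right). Short genes such as Apoe lie above 0 (1.54 and 1.09) and long ones such as Abca1 below it (-1.30 in osteogenic medium).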

How the data were processed

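Total RNA from 8 libraries of 4 groups was sequenced on Illumina libraries, per the labels' protocols. The submitters' processing notes name build mm10, the aligner HISAT2 2.0.5, the counter featureCounts 1.5.0-p3, and also DESeq2 1.16.1 and CASAVA. The values that the authors deposited are FPKM. No source used here gives the annotation release, strand setting or counting parameters. Places and exon lengths came from GENCODE M21, which matched 54495 identifiers and not 37. Depth came from the smallest step of FPKM times exon length, of which 98.1% to 98.2% of genes under 50 reads held whole multiples (tolerance 0.02 reads). Read numbers carry counting error only.

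Genes of at least 1 FPKM in at least 2 libraries were fitted as log2(FPKM + 1), using limma 3.58.1 under R 4.3.3 with 1 mean per group, a mean-variance trend and two-sided moderated tests (4 residual and 2.72 prior degrees of freedom). The steps were also run on simulated data, and as the outcome is not given here, that run lends no support to the results. No count model was used. The members, gene lists and alternatives were chosen with earlier results of these data known. Values per library were given for members that passed in a medium comparison with the largest or next largest change of their role, for Hmgcs1, Srebf1, Srebf2, Insig1 and Insig2, and for all efflux and LXR genes, and from each further list up to 4 genes with the smallest p in vector cells were open to naming. Ebp was added after its values were seen, as were the macrophage markers named and genes of the further lists named for passing in EphrinB2 cells. The 16 alternatives covered the pseudocount, filter, scaling, array weights, the libraries fitted, and each library left out.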

Additional observations from a re-analysis of the deposited data

How the results depend on the processing

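Of the 16 alternatives, those on the libraries and their weights moved the counts most. In vector cells 17 members passed, and 30 did with array weights (libraries weighted by their spread), with the 4 vector libraries alone, and without the libraries that stood apart. The share of all genes that passed rose alongside, from 7.52% to 42.5%, 40.6% and 40.6%. In EphrinB2 cells 21 passed, against 9 with array weights and 0 with the 4 EphrinB2 libraries alone, where the share of all genes went from 11.8% to 2.58% and 1.18%. Enzymes fallen in EphrinB2 cells went from 14 to 6 and 0 under the same settings. With 1 library left out, members passing ranged from 4 to 23 in vector cells and from 13 to 22 in EphrinB2 cells, and from 0 to 6 for EphrinB2 in osteogenic medium. The share of all genes then ranged from 1.30% to 13.5% in vector cells and from 4.89% to 43.8% in EphrinB2 cells. Fallen enzymes then ranged from 3 to 16 in vector cells and from 9 to 16 in EphrinB2 cells. Efflux and LXR genes risen in vector cells went from 1 to 2 with quantile normalization and to 4 with array weights, with the 4 vector libraries alone and without the libraries that stood apart, and ranged from 0 to 2 with 1 library left out. In EphrinB2 cells they went from 2 to 1 with no filter on low values, to 0 with the 4 EphrinB2 libraries alone and to 4 without the libraries that stood apart. Of all genes, 4.41% rose in vector cells, against 4.94% with quantile normalization, 20.4% with array weights and 18.5% in both other fits, and 6.36% rose in EphrinB2 cells, against 1.89%, 0.854% and 14.0%. The last setting also turned 3 changes in EphrinB2 cells, Pmvk to -0.88, Npc1 to 0.50 and Abca1 to 0.76. Fits on 4 libraries have fewer samples. The cause of the other shifts was not tested.

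No paired analysis was possible because the labels give no replicate number shared between groups. The 2 libraries per group limit every p-value and every statement that groups did not overlap. The unknown strand setting limits Fdft1, Scap, Hmgcs1 and Idi1. Genes on the same strand limit Fdps and Tm7sf2.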
